A study of Mus musculus with 69 samples.

Results

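The genes described here are the transcription factor Nrf2, encoded by Nfe2l2, and 9 of its known antioxidant and detoxifying targets: Hmox1, Nqo1, Gclc, Gclm, Srxn1, Txnrd1, Slc7a11, Gpx2 and Gsta1. They were chosen by name, and every array probe whose accession carries one of these RefSeq symbols was used, which gave 15 probes for 10 genes among 41174 probes and 18656 tested genes. Gene expression was measured in lungs of female C57BL/6 mice, which were 5 to 7 weeks old on arrival and were kept for 1 to 3 weeks before exposure. Each mouse received a single intratracheal instillation of 18, 54 or 162 µg of a TiO2 nanomaterial (NM), either NRCWE-025 or NRCWE-030, or of the vehicle alone, which was 2% serum in water. Lungs were taken on day 1 (24 h) or day 28, and the RNA of a frozen piece of each lung was hybridised on 1 array of its own. The vehicle controls and every dose group held 5 mice per day, except NRCWE-025 at 162 µg on day 28, which held 4, so that 69 arrays fell into 14 groups. The 5 controls of a day served both NMs.

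In a resting cell Nrf2 is held in the cytoplasm by Keap1 and passed on for degradation. Oxidants and electrophiles modify Keap1, Nrf2 then accumulates in the nucleus, pairs with a small Maf protein and binds antioxidant response elements in its target genes. These targets make glutathione, keep thioredoxin and peroxiredoxins reduced, degrade haem and conjugate reactive compounds, and in the lung they are known for their response to inhaled oxidants and particles. Because Nrf2 is controlled mainly through the stability of its protein, the level of its own mRNA is not a measure of its activity.

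A binding element of this kind has a core that can be written TGACNNNGC, and this core was looked for on both strands of the RefSeq promoter windows of the genes (assembly GRCm38.p6, 250 bases before to 50 bases after a start site). Of 32851 such windows, 12.4% held a match. A window was given for 8 of the 10 genes, of which 4 held a match (Gclm, Srxn1, Txnrd1 and Nfe2l2), and Nqo1, Slc7a11, Gpx2 and Gsta1 had no match in this window. This count is by gene and the 12.4% is by window, and Txnrd1 had 3 windows. For Hmox1 and Gclc there was no entry. The 3 matches that lie before a start site are printed because they show what a match to this core looks like in 3 of the genes measured here. Each is given 5′ to 3′ on the strand that carries the core, with the core in capitals. In Gclm the core lies on the strand opposite to the gene, 134 bases before the start (chr3:122245413-122245441). In Txnrd1 it also lies on the opposite strand, 92 bases before the start of 1 of its 3 windows (chr10:82859104-82859132). In Nfe2l2 it lies on the strand of the gene, 240 bases before the start (chr2:75704885-75704913).
Gclm: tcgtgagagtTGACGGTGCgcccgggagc
Txnrd1: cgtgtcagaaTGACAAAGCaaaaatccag
Nfe2l2: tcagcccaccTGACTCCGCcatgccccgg
A match describes letters only and shows neither binding nor a response.

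Values are log2 ratios of lung RNA (Cy5) to a pool of mouse reference RNA (Cy3), so a level can be compared between groups for 1 gene but not between genes. A gene was called when its Benjamini-Hochberg adjusted p-value from limma, over all 18656 genes, was under 0.05. Of the 69 arrays, between 49.1% and 72.8% of the spots were well above background in Cy5 (median 62.1%) and 0 were saturated. Of the 10 genes, 8 were well above background on all 69 arrays with every probe, Gclm on 66, and Slc7a11 on few (below). An array correlated with the others of its group at a median r of 0.96 across genes. The lowest value was 0.885, for replicate 3 of NRCWE-030 at 18 µg on day 1. Differences from control that rest on this and other outlying arrays are given below with and without them. Correlations between genes are given over all 69 arrays, and also within groups where stated.

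Among the 120 comparisons of a gene with the controls of its day (10 genes, 3 doses, 2 NMs and 2 days), 1 was called. Hmox1, which encodes the enzyme that opens the haem ring, was higher at 162 µg of NRCWE-030 on day 1. That comparison called 1.69% of all genes, with 1.22% higher and 0.472% lower. In the other 11 comparisons limma called 0 of the 10 genes, where the calls among all genes were few. On day 1 these made up 0%, 0% and 0.209% at 18, 54 and 162 µg of NRCWE-025, and 0.00536% and 0.0804% at 18 and 54 µg of NRCWE-030. On day 28 they made up 0.059%, 0.0268% and 0.0161% at the 3 doses of NRCWE-025, and 0.118%, 0.0536% and 0.0965% at those of NRCWE-030. An unadjusted p under 0.05 was reached in 13 of the 120 comparisons, and in 8.26% of those of all genes over the 12 tests pooled (5.12% to 12.9% per test). The 95% confidence intervals of 9 genes, without Slc7a11, had half-widths from 0.17 to 0.61 on the log2 scale (median 0.34). Of these 108 intervals, 102 lay inside a 2-fold change in either direction, against 98.1% of those of all genes, and 103 lay wholly below a 2-fold rise, against 99%. Slc7a11 was left out here because values near background cannot bound a fold.

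Hmox1 was followed on every array. In the 5 controls of day 1 its log2 ratio was -1.71, -1.31, -1.50, -1.47 and -1.30, with a mean of -1.46 ± 0.17 (SD, n = 5). Lungs given 162 µg of NRCWE-030 read -0.20, -0.43, -0.67, -0.76 and -0.52, with a mean of -0.52 ± 0.22 (SD, n = 5). All 5 exposed lungs lay above all 5 controls, which was the case for 2.9% of all genes in this comparison. The difference was 0.94 ± 0.23 (SE) on the log2 scale, a ratio of 1.92 with a 95% confidence interval of 1.37 to 2.68 (limma, adjusted p-value 0.0442). The call was close to the threshold. It remained in 5 of the 20 fits that left out a single array, those without replicate 2, 3 or 5 at 18 µg or replicate 4 or 5 at 54 µg, and was lost without any other array, each control and each array at 162 µg included. The difference itself moved little in these fits (0.86 to 1.00), and the adjusted p-value lay between 0.0145 and 0.109.

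The middle dose of NRCWE-030, 54 µg, gave Hmox1 values on day 1 of -0.92, -0.74, -0.94, -1.49 and 0.04. Here 4 of 5 lungs lay above all controls and replicate 4 lay among them. The difference was 0.65 ± 0.23 (SE), with an adjusted p-value of 0.367, and 0.43 without replicate 5, which read highest. At 18 µg the values were -1.18, -1.70, -0.53, -1.13 and -1.76 and spanned the controls. The difference was 0.20, and 0.02 without replicate 3, the array that stood apart most. The group mean was -1.26 at 18 µg, -0.81 at 54 µg and -0.52 at 162 µg, but neighbouring means differed by less than the larger of their SDs, and the F-test over the 4 groups gave an adjusted p-value of 0.118.

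NRCWE-025 gave a difference in the same direction at its highest dose. At 162 µg on day 1 Hmox1 read -1.38, -1.01, -0.74, -0.20 and -0.66, so that 4 of 5 lungs lay above all controls and replicate 1 lay among them. The difference was 0.66 ± 0.16 (SE), a ratio of 1.58 with a 95% confidence interval of 1.25 to 1.98 (limma, adjusted p-value 0.0817), and it was not called. Without replicate 1 the difference was 0.80 and the adjusted p-value 0.0191. At 18 and 54 µg the differences were -0.19 and 0.20. Since both NMs were set against the same 5 controls, their differences share the error of those controls. The NMs were therefore compared with each other at matched doses in a fit of all 14 groups. On day 1 NRCWE-030 minus NRCWE-025 was 0.39 (95% confidence interval 0.01 to 0.76) at 18 µg, 0.45 (0.07 to 0.82) at 54 µg and 0.28 (-0.09 to 0.65) at 162 µg. The F-test over the 3 doses gave an adjusted p-value of 0.431, so a difference between the NMs in Hmox1 was not called, although 2 of the 3 intervals lay above 0. Those 2 intervals hold the NRCWE-030 arrays that read highest in their groups, replicate 3 at 18 µg (-0.53) and replicate 5 at 54 µg (0.04). Intervals between the NMs without these arrays are not given.

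On day 28 Hmox1 read between -1.84 and -1.22 in the 5 controls (mean -1.61). At 162 µg it read -1.65, -1.80, -1.63 and -1.45 with NRCWE-025, and -1.70, -1.72, -1.40, -1.84 and -1.24 with NRCWE-030. All of these lay within or close to the range of the controls, and the differences over the 6 dose groups of that day ran from -0.02 to 0.16. The largest of these, at 18 µg of NRCWE-025, was 0.01 without replicate 5, which read -0.84. To compare the days, the difference at 162 µg on day 28 was subtracted from that on day 1, which gave 0.91 ± 0.26 (SE) for NRCWE-030 (limma, adjusted p-value 0.167) and 0.68 ± 0.27 (SE) for NRCWE-025 (adjusted p-value 0.338). These tests called 0.198% and 0.059% of all genes, and 0 of the 10. At an unadjusted p under 0.05 they held Hmox1 for NRCWE-025 (10.5% of all genes) and Hmox1 and Gsta1 for NRCWE-030 (7.67% of all genes).

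**Figure D1:**
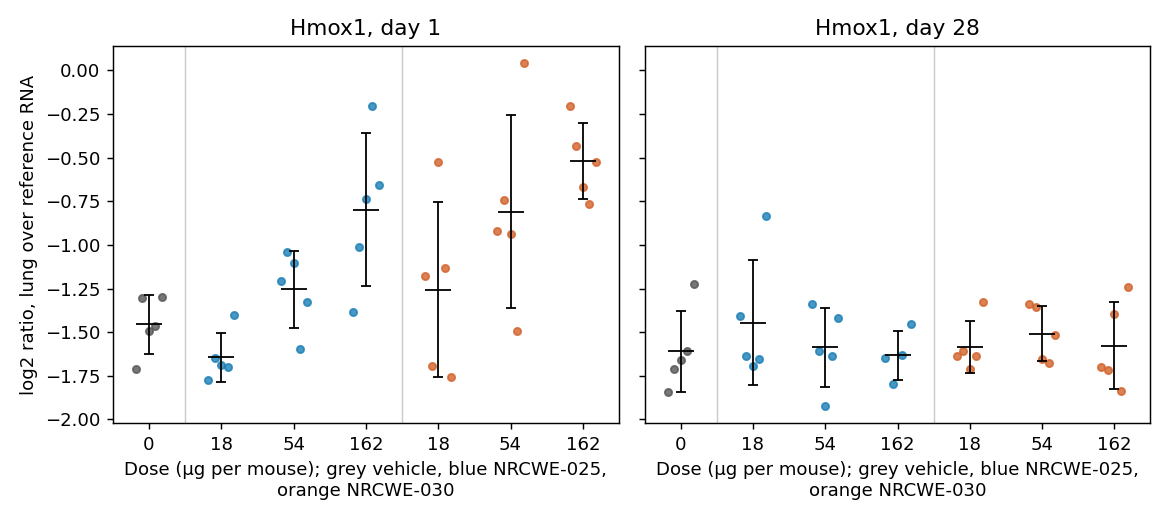
Hmox1 on each array, as the log2 ratio of lung over reference RNA (y axis), by dose in µg per mouse (x axis), on day 1 (left) and day 28 (right). Grey points are vehicle, blue NRCWE-025 and orange NRCWE-030, with the group mean and SD in black. The 5 points at 162 µg of NRCWE-030 on day 1 lie between -0.76 and -0.20, above the controls of that day, and the day 28 groups overlap.

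The arrays were spread over 19 slides and 11 scan days, and some of these held both a control and an exposed lung. Within the 2 slides that held both on day 1, Hmox1 at 162 µg of NRCWE-030 lay 0.63 and 1.26 above control, and within the 2 slides of NRCWE-025 it lay 0.33 and 0.49 above. Within scan days the differences were 0.58 and 1.26 for NRCWE-030 and ran from 0.33 to 1.09 over 3 days for NRCWE-025. When slide entered the fit as a fixed block, which left 8 residual degrees of freedom in place of 16, the NRCWE-030 difference was 1.07 with an adjusted p-value of 0.143. When scan day did so it was 0.95 with an adjusted p-value of 0.256, and as a random block slide gave 0.98 with an adjusted p-value of 0.0174. With the authors' own normalised values it was 0.91 with an adjusted p-value of 0.0514.

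Gsta1, a glutathione S-transferase that conjugates electrophiles to glutathione, had the most negative difference of the 120. In the controls of day 1 it read -0.34, -0.30, -0.10, -0.42 and -0.59. Given 162 µg of NRCWE-030, lungs of day 1 read -0.88, -1.22, -0.61, -1.20 and -1.23, so that all 5 lungs lay below all 5 controls, which was the case for 1.65% of all genes. The difference was -0.67 ± 0.19 (SE), a ratio of 0.627 with a 95% confidence interval of 0.477 to 0.824, and it was not called (limma, adjusted p-value 0.079, and 0.0651 for the F-test over the doses). It passed the threshold in 2 of the 20 fits that left out a single array, those without replicate 2 or 3 at 54 µg (adjusted p-value from 0.0386 to 0.187 over the 20). Within the 2 slides that held both groups it was -0.45 and -0.02, and in the fit with slide as a fixed block -0.48 (adjusted p-value 0.459).

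For 54 µg of NRCWE-030 the difference in Gsta1 was -0.41, and -0.24 without replicate 3, which read -1.43, and at 18 µg it was 0.18, and 0.08 without replicate 3. With NRCWE-025 on day 1 it was -0.43 at 18 µg, -0.22 at 54 µg and -0.43 at 162 µg (adjusted p-values 0.971 at 18 µg and 0.321 at 162 µg). These groups overlapped the controls. On day 28, at 18 µg of NRCWE-025, the values were -0.35, -0.53, 0.10, 0.31 and 1.50 against -0.69 to -0.32 in the controls, a difference of 0.67 ± 0.27 (SE) with an adjusted p-value of 0.483, and of 0.34 without replicate 5. At 54 µg of that NM all 5 lungs lay above all controls (0.28, -0.17, -0.26, -0.25 and 0.32), as did 0.557% of all genes, with a difference of 0.44 and an adjusted p-value of 0.769. NRCWE-030 gave -0.07 to 0.11 on that day. The F-tests between the NMs gave adjusted p-values of 0.62 on day 1 and 0.491 on day 28. Gsta1 has 1 probe here and near-identical paralogs, among them Gsta2, so part of its signal may come from these.

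The genes of glutathione synthesis were not called at any dose. Gclc encodes the catalytic subunit of glutamate-cysteine ligase, the first enzyme of glutathione synthesis. On day 1 it read 2.31, 2.84, 1.75, 2.23 and 1.99 in the controls and 3.44, 2.50, 2.42, 2.15 and 2.15 at 162 µg of NRCWE-030, a difference of 0.31 with a 95% confidence interval of -0.19 to 0.80. It was the largest of the 12 differences of Gclc and was 0.08 without replicate 1, which read 3.44. Gclm encodes the modifier subunit of the same ligase. Its 5 controls of day 1 read within -0.53 and -0.37. At 162 µg it read -0.18, -0.50, -0.32, -0.51 and -0.05 with NRCWE-025 and -0.42, -0.30, -0.64, -0.63 and -0.35 with NRCWE-030. Both groups overlapped the controls, and the 12 differences ran from -0.13 to 0.21. Gclm varied least among the well-measured genes, with a pooled SD within groups of 0.16.

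Slc7a11, the cystine carrier that brings in the sulphur for glutathione, was near the limit of detection. Of its 3 probes, only A_52_P368057 was well above background anywhere, on 21 of 69 arrays. On day 1 that probe was well above background in 0 of 5 controls, in 4 of 5 lungs at 162 µg of NRCWE-030, in 2 of 5 at 162 µg and 4 of 5 at 54 µg of NRCWE-025, and on day 28 in 1 of 5 controls. The groups named here do not hold all of the 21 arrays, so the probe was also well above background in groups not listed. The share of all probes with such a pattern is not given, and whether detection of this probe followed exposure or dose was not tested. Its log2 ratio on day 1 averaged -0.92 in the controls, -0.60 at 162 µg of NRCWE-030 and -0.47 at 162 µg of NRCWE-025, with adjusted p-values of 0.531 and 0.281 over all probes. No fold is given because the control values of day 1 are only a bound.

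Gpx2 encodes a glutathione peroxidase of epithelia, and it was among the most variable genes on these arrays, with a pooled SD within groups of 0.45 (97th percentile of all genes, whose median was 0.17). Its values ran from 3.72 to 4.81 in the controls of day 1, from 3.99 to 4.75 at 162 µg of NRCWE-025 and from 3.24 to 4.79 at 162 µg of NRCWE-030, and all of these groups overlapped. The largest difference, at 18 µg of NRCWE-025 on day 28, was 0.61 (adjusted p-value 0.526) and 0.51 without replicate 5. At 162 µg of NRCWE-030 on day 1 it was -0.30 with a 95% confidence interval of -0.91 to 0.30, and it ran from -0.47 without control replicate 5 to -0.09 without replicate 5 of the dose group.

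Srxn1 and Txnrd1 keep protein thiols reduced. Srxn1 encodes sulfiredoxin, which repairs over-oxidised peroxiredoxins, and its 3 probes gave differences of the same sign at 162 µg on day 1. Srxn1 read -0.96, -1.03, -1.29, -1.26 and -1.17 in the controls of day 1. It read -0.88, -1.12, -1.12, -0.84 and -0.76 at 162 µg of NRCWE-025, of which 3 of 5 lay above all controls, a difference of 0.20 (adjusted p-value 0.564). At the same dose of NRCWE-030 the difference was 0.02 on day 1 and -0.21 on day 28, where 4 of 5 lungs lay below all controls (adjusted p-value 0.654). Txnrd1 encodes the cytosolic thioredoxin reductase. In the controls of day 1 it read 0.14 in replicate 1 and between -1.09 and -0.87 in the others. At 162 µg it lay between -0.85 and -0.57 with NRCWE-025 and between -0.93 and -0.56 with NRCWE-030. The differences were 0.08 and -0.04, and without control replicate 1 they were 0.30 and 0.18 (adjusted p-values 0.412 and 0.724), so that 1 control decided their size. Neither gene was called in any comparison.

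Nqo1, a quinone reductase and the classic readout of Nrf2 activity, was not called on either day. On day 1 it read -1.43, -2.24, -2.06, -1.84 and -1.92 in the controls. At 162 µg it read -1.73, -1.88, -1.83, -2.28 and -1.53 with NRCWE-025, a difference of 0.05 with a 95% confidence interval of -0.28 to 0.37. With NRCWE-030 it read -1.92, -2.12, -1.81, -1.99 and -1.82, a difference of -0.03 with an interval of -0.37 to 0.30. Both intervals lie below 1.5-fold. On day 28 its differences were positive in 6 of 6 dose groups, which share 1 set of 5 controls, and the largest were 0.40 at 18 µg of NRCWE-025 (adjusted p-value 0.502) and 0.32 at 162 µg of NRCWE-030 (adjusted p-value 0.678). The first of these was 0.26 without replicate 5.

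Nfe2l2, the gene of Nrf2 itself, read 0.81, 0.48, 0.79, 0.81 and 0.54 in the controls of day 1. At 162 µg it read 0.50, 0.54, 0.70, 0.35 and 0.40 with NRCWE-025 and 0.92, 0.65, 0.69, 0.77 and 0.63 with NRCWE-030. Both groups overlapped the controls, with differences of -0.19 and 0.05. Its most negative difference, at 54 µg of NRCWE-025 on day 28, was -0.27 (adjusted p-value 0.706), and -0.17 without replicate 5. Its 2 probes read alike on most arrays, but the lowest value was -0.59 for the first and 0.14 for the other.

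**Figure D2:**
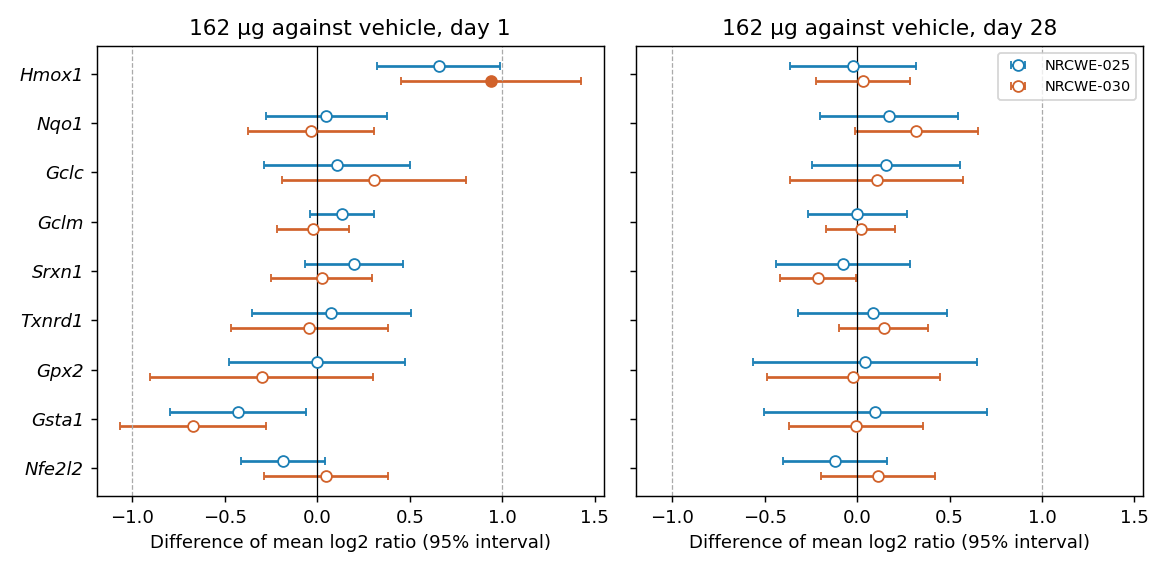
Difference of the mean log2 ratio at 162 µg from the vehicle of the same day (x axis, log2 scale) for 9 genes (y axis), with 95% confidence intervals, on day 1 (left) and day 28 (right). Blue is NRCWE-025, orange NRCWE-030, a filled point is a called difference and dashed lines mark a 2-fold change. Hmox1 at NRCWE-030 on day 1 (0.94) is the filled point, and the interval of Gsta1 there lies below 0.

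**Figure D3:**
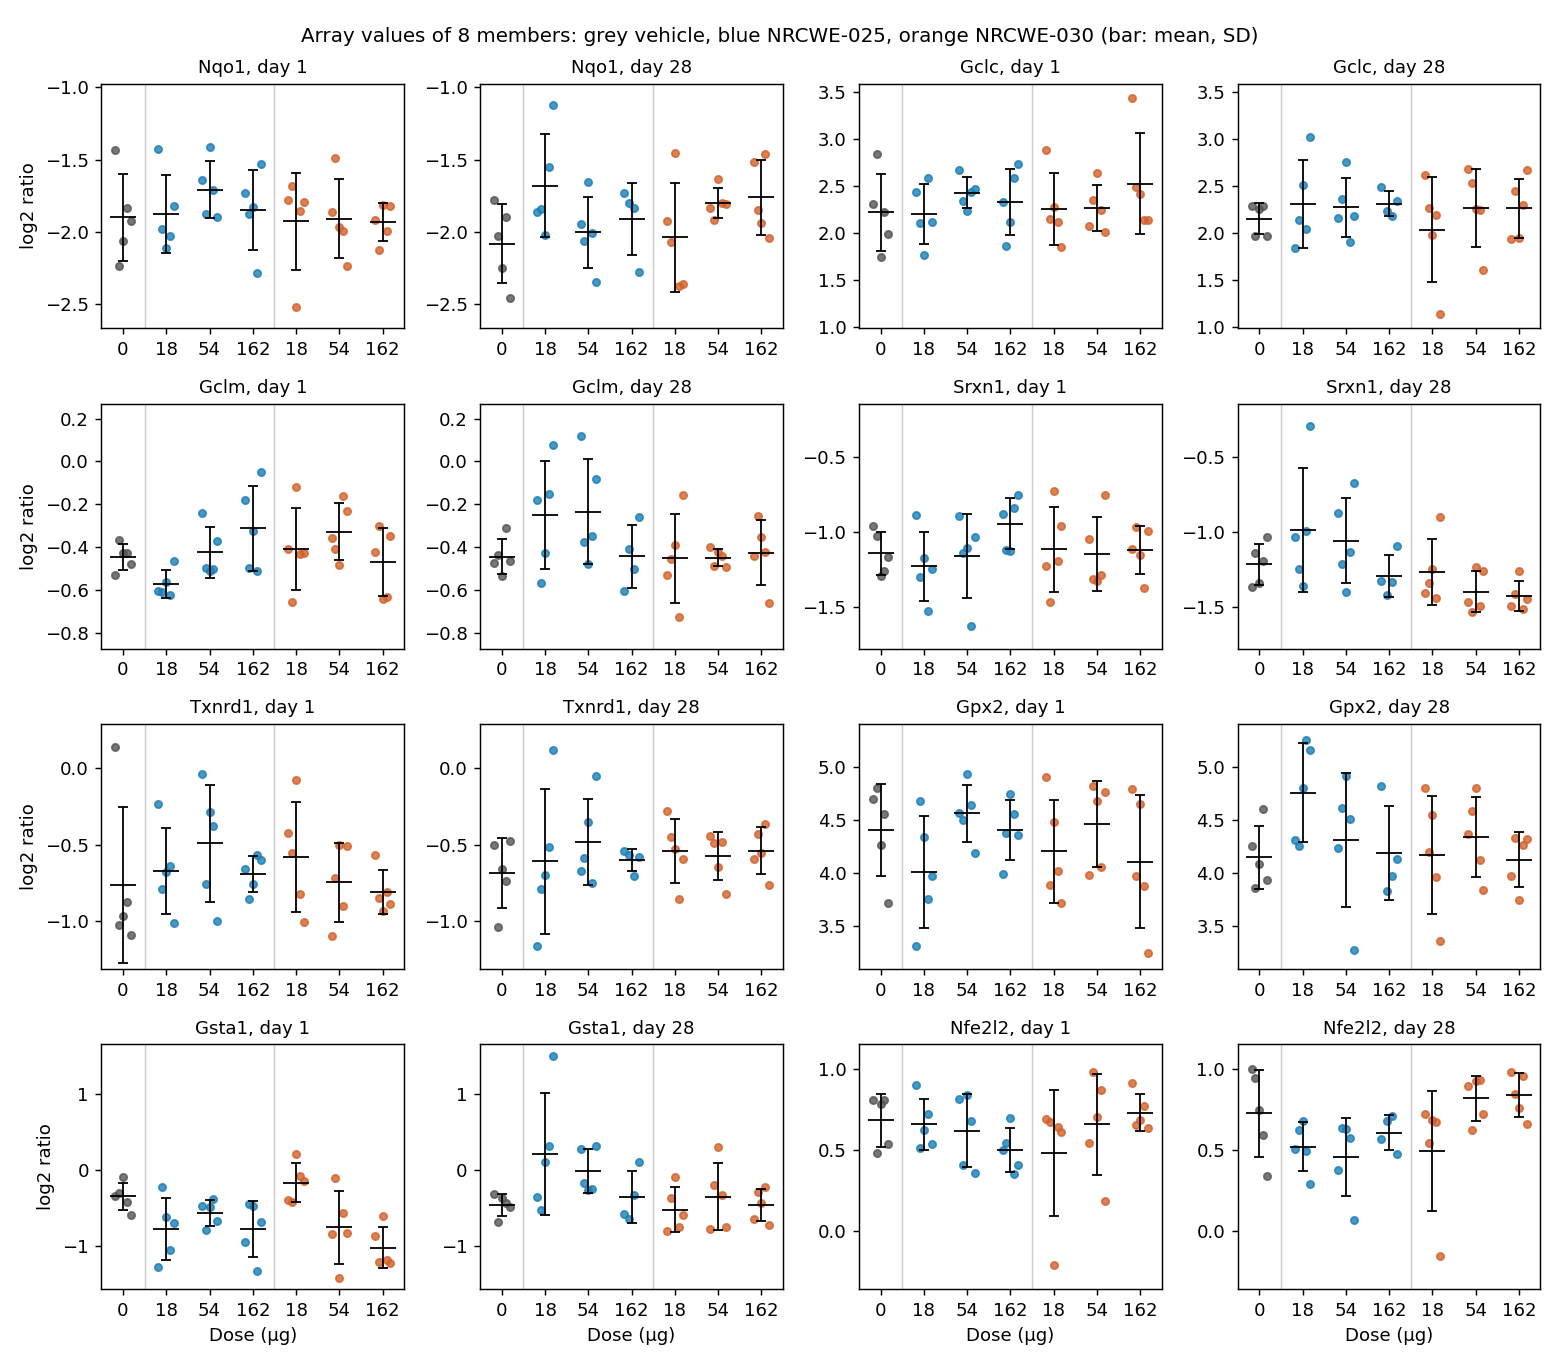
Log2 ratio of lung over reference RNA (y axis) on each array for 8 of the genes, by dose in µg (x axis) and day. Grey points are vehicle, blue NRCWE-025 and orange NRCWE-030, with the group mean and SD. The groups overlap in most panels, and control replicate 1 of day 1 stands at 0.14 for Txnrd1 and replicate 1 of NRCWE-030 at 162 µg at 3.44 for Gclc.

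Over the 10 genes as a list, the median difference for NRCWE-030 at 162 µg on day 1 was -0.02, with 4 of 10 above 0, against a median of 0.00 and 51.3% above 0 for all genes, and at an unadjusted p under 0.05 there were 2 of 10 against 12.9% of all genes. For NRCWE-025 at that dose and day the median was 0.06, with 6 of 10 above 0 and 2 of 10 at an unadjusted p under 0.05 against 12.3%. On day 28 at 162 µg the medians were 0.04 for NRCWE-025 and 0.03 for NRCWE-030. The largest shift was at 18 µg of NRCWE-025 on day 28, with a median of 0.18, 9 of 10 above 0 and 3 of 10 at an unadjusted p under 0.05, against 51.7% above 0 and 8.89% at that p for all genes, and it was not larger at the higher doses of that day (0.14 and 0.04). Without replicate 5 of that group the median was 0.03, with 6 of 10 above 0 and 0 at an unadjusted p under 0.05 (8.05% of all genes), so that 1 array decided this shift. Without control replicate 1 of day 1 the medians at 162 µg on that day were 0.07 for NRCWE-030 and 0.12 for NRCWE-025, with 7 of 10 above 0 for each. By the F-test over dose, limma called 0 of the 10 genes for either NM on either day, against 0.0214% and 0.954% of all genes for NRCWE-025 and NRCWE-030 on day 1 and 0.0268% and 0.102% on day 28. At an unadjusted p under 0.05 there were Hmox1 and Gclm for NRCWE-025 on day 1 (9.98% of all genes) and Hmox1 and Gsta1 for NRCWE-030 on day 1 (11.2% of all genes), and none on day 28 (5.77% and 7.06% of all genes). Between the NMs limma called 0 of the 10 genes, against 0.155% of all genes on day 1 and 0.241% on day 28. An unadjusted p under 0.05 was reached by Hmox1 and Gsta1 on day 1 (7.78% of all genes) and by Gclm, Srxn1, Gsta1 and Nfe2l2 on day 28 (6.29% of all genes). Genes at this unadjusted p were not counted again without single arrays. On day 28, replicate 5 at 18 µg of NRCWE-025 read highest in its group for Gclm, Srxn1 and Gsta1 and lowest for Nfe2l2. Replicate 5 at 54 µg of NRCWE-025 read highest for Srxn1 and Gsta1 and lowest for Nfe2l2, and its correlation with its group was 0.91.

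Across the 14 groups the order of the Hmox1 means began with NRCWE-030 at 162 µg (-0.52), NRCWE-025 at 162 µg (-0.80) and NRCWE-030 at 54 µg (-0.81), all on day 1, followed by NRCWE-025 at 54 µg and NRCWE-030 at 18 µg, also on day 1 (both -1.26). The remaining 9 groups, the controls included, lay between -1.64 and -1.45. The 14 means of Hmox1 spanned 1.13 and those of Gsta1 1.23, and in the other genes the span was at most 0.75. For every gene, each of the 13 steps between neighbouring means in this order was smaller than the larger SD of the pair. Putting 14 means in order makes such steps small, so this does not show whether groups further apart in the order differ.

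Over the 69 arrays and 9 genes (Slc7a11 left out), 25 of the 36 pairs correlated positively, with a median r of 0.19. These arrays share controls, slides and reference RNA, so r is a description. The highest was that of Gclm with Srxn1 (0.65), followed by Hmox1 with Srxn1 (0.50) and Nqo1 with Nfe2l2 (0.48). Within groups these were 0.67, 0.56 and 0.56. Nfe2l2 correlated negatively with Srxn1 (-0.62, and -0.58 within groups), Gclm (-0.46, and -0.44 within groups) and Hmox1 (-0.33, and -0.62 within groups). None of these correlations was recomputed without outlying arrays. Some arrays read lowest in their group for Nfe2l2 and highest for Hmox1. With NRCWE-030 these included replicate 3 at 18 µg and replicate 5 at 54 µg on day 1, and replicate 5 at 18 µg on day 28. Replicate 1 at 162 µg on day 1 read highest for both genes. Among 13699 genes well above background on at least 1 in 2 arrays, those most like Hmox1 were Lgals1, Tmem208 and Timp1 (r = 0.88 each), whereas the best correlations of Nqo1 and Gclc were 0.62, with C1qbp, and 0.60, with Eml2. Gclm came closest to Srxn1 itself, then to Tomm40 (0.65) and Ssrp1 (0.63). Srxn1 came closest to Gpc6, Pkp1 and Plekhg4 (each 0.86), Txnrd1 to C2cd5 (0.80), Gpx2 to Ppp1r14d and Tspan1 (each 0.81), Gsta1 to Gsta2 (0.86), Asgr1 (0.79) and Ces1f (0.78), and Nfe2l2 to Syap1, Fbxo4 and Rheb (each 0.88).

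Other genes of the pathway were taken from 6 lists: 9 regulators of Nrf2, 16 genes of glutathione synthesis and use, 12 of thioredoxins, peroxiredoxins, catalase and superoxide dismutases, 6 of NADPH supply, 7 of haem and iron and 15 of detoxification. Of these 65 genes, 63 were measured. For NRCWE-030 at 162 µg on day 1, 3 of 63 were called, against 1.69% of all genes. Fth1 was higher, and Aox1 and Gstm1 were lower. With NRCWE-025 at the same dose and day, 1 of 63 was called, against 0.209% of all genes, and this was Aox1 again, lower. In the other 10 comparisons of a dose with control, limma called 0 of the 63. By the F-test over dose on day 1 it called Aox1 for NRCWE-025 and Aox1 and Fth1 for NRCWE-030, and on day 28 none of the 63. The median difference of the 63 was -0.04 for NRCWE-030, with 26 above 0 and 18 at an unadjusted p under 0.05 against 12.9% of all genes, and 0.01 for NRCWE-025, with 32 above 0 and 9 at an unadjusted p under 0.05 against 12.3%.

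Fth1 encodes the heavy chain of ferritin, which stores the iron that haem breakdown sets free. It read -0.37, -0.52, -0.09, 0.12 and -0.01 in the controls of day 1 and 1.01, 0.73, 0.61, 0.43 and 0.71 at 162 µg of NRCWE-030. The groups did not overlap, and the difference was 0.87 ± 0.16 (SE), a ratio of 1.83 (limma, adjusted p-value 0.00871, and 0.0122 for the F-test over dose). It was 0.51 at 54 µg (adjusted p-value 0.277) and -0.04 at 18 µg. With NRCWE-025 at 162 µg the values were -0.18, -0.21, 0.33, 0.60 and 0.77, with a difference of 0.44 (adjusted p-value 0.416), and on day 28 NRCWE-030 at 162 µg gave 0.38 (adjusted p-value 0.646). Ftl1, the light chain, differed by 0.04 at 162 µg of NRCWE-030 on day 1. In the haem and iron list 6 of 7 genes lay above 0 there (median 0.10), with Fech, which inserts iron into haem, the lowest at -0.25.

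Aox1 encodes aldehyde oxidase, a drug-metabolising enzyme. It read 1.73, 1.58, 1.69, 1.66 and 1.61 in the controls of day 1. At 162 µg it read 0.95, 1.08, 1.20, 1.05 and 1.00 with NRCWE-025, a difference of -0.60 ± 0.08 (SE, adjusted p-value 0.00677). With NRCWE-030 it read 0.87, 1.05, 1.32, 1.08 and 1.18, a difference of -0.55 ± 0.10 (SE, adjusted p-value 0.00549). Neither group overlapped the controls, which both differences share, and 1.22% and 1.65% of all genes likewise lay below every control with NRCWE-025 and NRCWE-030. The F-test over dose was called for both NMs (adjusted p-values 0.0368 and 0.0115). With NRCWE-025 the difference was -0.36 at 18 µg (adjusted p-value 0.351) and -0.22 at 54 µg (adjusted p-value 0.666), so that its size did not follow the order of the doses. With NRCWE-030 it was -0.14 at 18 µg and -0.46 at 54 µg (adjusted p-value 0.0798). On day 28 the differences ran from -0.07 to 0.18 with NRCWE-030 and from 0.04 to 0.38 with NRCWE-025. In the detoxification list 3 of 13 genes lay above 0 at 162 µg of NRCWE-030 (median -0.12), the highest being Akr1b8, an aldo-keto reductase, at 0.31.

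Gstm1, a glutathione S-transferase of the mu class, read 2.23, 2.01, 2.10, 2.02 and 1.55 in the controls of day 1 and 0.93, 1.17, 1.14, 0.88 and 1.16 at 162 µg of NRCWE-030. Every exposed lung again lay below every control, as was the case for 1.65% of all genes. The difference was -0.92 ± 0.22 (SE), a ratio of 0.527 (limma, adjusted p-value 0.0367). The call was lost when any of control replicates 1 to 4 or any single array at 162 µg was left out, and over all 20 such fits the difference ran from -1.03 to -0.86 (adjusted p-value from 0.00931 to 0.0871). With NRCWE-025 at 162 µg it was -0.72 (adjusted p-value 0.106), and on day 28 the differences ran from -0.26 to 0.27. Gstm1 too has close paralogs in its family. In the glutathione list 3 of 16 genes lay above 0 at 162 µg of NRCWE-030 (median -0.11), with Gstm5 the highest at 0.40 (adjusted p-value 0.568). Aox1, with both NMs, and Fth1 were called at 162 µg in all 20 fits that left out a single array. In the fits with slide or with scan day as a fixed block none of the 3 genes was called, while the differences were -0.67 and -0.61 for Aox1 with NRCWE-025, -0.57 and -0.56 for Aox1 with NRCWE-030, 0.74 and 0.78 for Fth1 and -0.83 and -0.76 for Gstm1. In 1 fit of all 14 groups Aox1 with NRCWE-025 was not called either (-0.60, adjusted p-value 0.0539), and Gstm1 was not called with the authors' own normalised values or with its brightest probe alone.

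**Figure D4:**
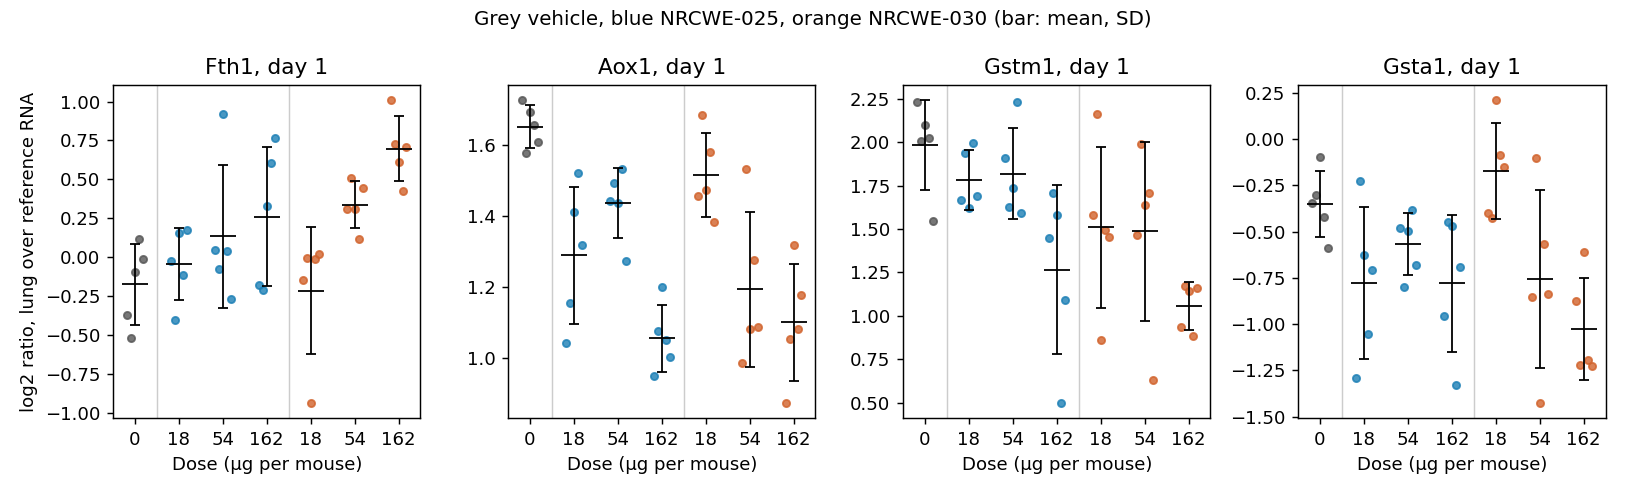
Log2 ratio of lung over reference RNA (y axis) on each array of day 1 for Fth1, Aox1, Gstm1 and Gsta1, by dose in µg per mouse (x axis). Grey points are vehicle, blue NRCWE-025 and orange NRCWE-030, with the group mean and SD. At 162 µg of NRCWE-030 all 5 points lie above the controls for Fth1 (2.9% of all genes) and below them for the other genes (1.65% of all genes).

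Among the regulators 0 of 9 were called. The share of all genes called was 1.69% at 162 µg of NRCWE-030 on day 1 and smaller in every other comparison with control, for this list and those below. In alternative fits, the F-test over the doses of NRCWE-030 on day 1 called Maff with either fixed block (slide or scan day), where Aox1 and Fth1 were no longer called. With slide as a random block it called Maff and Bach2, and outside this list Gstm2 and Nqo2 besides Aox1 and Fth1. The share of all genes called in these alternative fits is not given, so their calls cannot be set against it. Maff, a small Maf partner of Nrf2, had the highest difference at 162 µg of NRCWE-030 on day 1 (0.57, adjusted p-value 0.129) and Bach1, a repressor of Hmox1, the lowest (-0.47, with a 95% confidence interval of -1.30 to 0.35). Among the thioredoxin and peroxiredoxin genes 0 of 12 were called, from 0.52 for Sod2, the mitochondrial superoxide dismutase (adjusted p-value 0.363), to -0.43 for Prdx6, a peroxiredoxin abundant in lung (adjusted p-value 0.28). Among the genes of NADPH supply 0 of 6 were called and all lay close to 0, from -0.10 for Me1 to 0.08 for Tkt. The promoter windows of Aox1, Fth1 and Gstm1 held no match to the core TGACNNNGC.

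**Figure D5:**
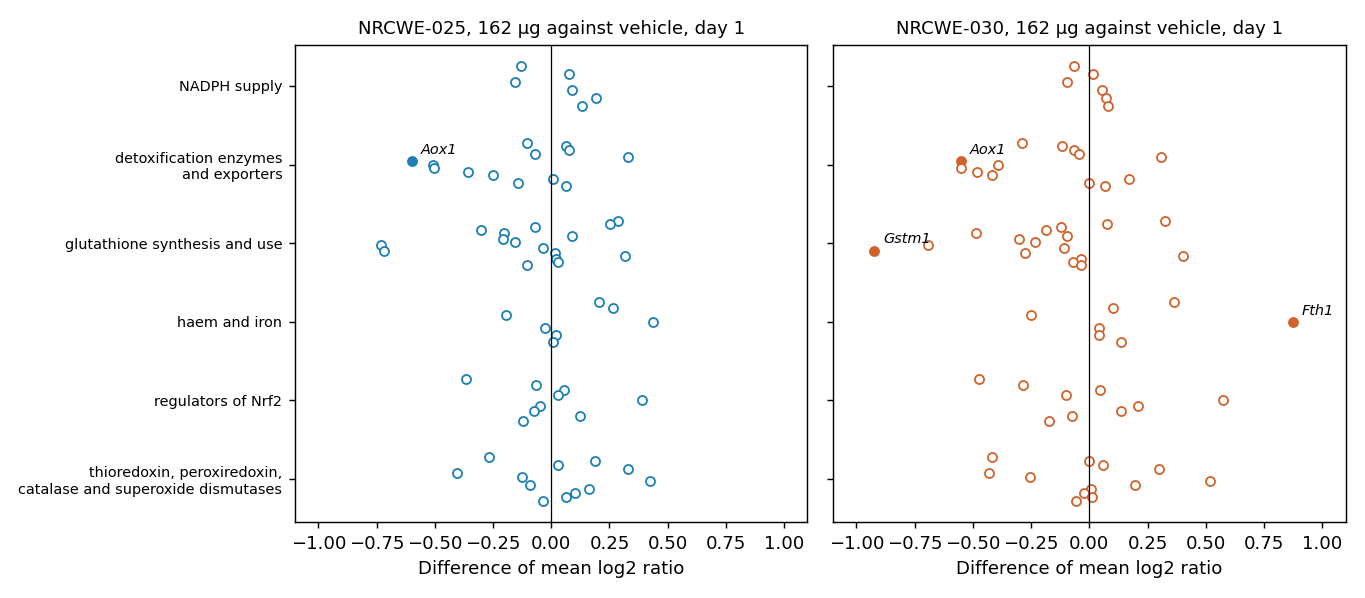
Difference of the mean log2 ratio at 162 µg from vehicle on day 1 (x axis, log2 scale) for each measured gene of the 6 pathway lists (y axis), for NRCWE-025 (left) and NRCWE-030 (right). Filled, named points are called genes. Aox1 is called in both panels (-0.60 and -0.55), and Fth1 (0.87) and Gstm1 (-0.92) with NRCWE-030.

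A piece of lung holds many cell types, and in such bulk RNA fewer cells of a type and less RNA per cell cannot be told apart. Alveolar markers such as Sftpc and Ager were well above background on all arrays. In the comparison that called Hmox1, 1 of 7 neutrophil markers was higher (Csf3r, 1.25, adjusted p-value 0.00262), 1 of 6 macrophage markers was higher (Msr1, 0.98, adjusted p-value 0.00687) and 1 of 2 red cell markers was lower (Hba-a1, -0.65, adjusted p-value 0.0207). Of all genes, 1.22% were called higher and 0.472% lower there. The other markers of these lists were not called and differed in both directions, from -0.34 for Retnlg to 0.49 for Mmp8 among the neutrophil markers and from -1.06 for Chil3 to 0.40 for Marco among the macrophage markers, and Alas2 of the red cell list differed by -0.31. The mean log2 ratio of the neutrophil list was 2.10 to 2.44 in the controls and 2.35 to 2.87 in that group, that of the macrophage list 2.76 to 3.11 and 2.66 to 3.24, and that of the alveolar list 5.21 to 5.77 and 5.02 to 5.48, with 5 of 6 alveolar markers lower by point estimate and 0 called. Among all genes, 51.3% lay above 0 in this comparison. For NRCWE-025 at 162 µg the lists gave 2.01 to 3.02, 2.89 to 3.21 and 4.83 to 5.49, and Csf3r and Msr1 differed by 0.37 and 0.76 (adjusted p-values 0.634 and 0.134). Heart muscle genes, which can come with the sampled piece, ranged from 1.14 to 5.04 among the controls of day 1 and from 0.22 to 3.93 at 162 µg of NRCWE-030. The part of these cell types in the differences of Hmox1, Fth1, Gsta1, Aox1 and Gstm1 was not tested.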

How the data were processed

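RNA of 69 mouse lungs was measured on 2-colour Agilent arrays, Cy5 for lung and Cy3 for Universal Mouse Reference RNA, with no dye swap. The deposited scanner files, from Agilent Feature Extraction 11.0.1.1 per the file headers, hold median spot and local background signals as linear intensity and a log10 ratio of Cy5 to Cy3. Their flags are scores of 0 or 1. The authors' normalised log2 ratios (LOWESS), deposited in the series matrix, served as an alternative.

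Spot intensities were background-corrected by normexp (offset 50), after each local background marked by the scanner as outlying took the median of its array's unmarked ones, and normalised by loess within each array, without scaling between arrays (limma 3.58.1, the data.table package, version 1.17.8, R 4.3.3; plots in matplotlib 3.10.9, Python 3.11.15). Of 45018 spots, 43379 were not controls. Spots of 1 probe and probes of 1 symbol were combined by the median. Of 41174 probes, 27479 had a symbol in RefSeq GRCm38.p6, giving 18749 symbols, of which 93 lacked a value on some array. The array files name mm9, so GRCm38.p6 served for names and promoter windows only.

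For each NM and day, 1 limma fit held the controls and the 3 doses and gave the F-test and the contrasts, two-sided and with no covariate. A fit of all 14 groups compared NMs and days. Named genes were all members, each pathway gene called in any dose test, the highest and lowest pathway gene per list at 162 µg of NRCWE-030 on day 1, and the 3 genes most correlated with each member. Csf3r, Msr1 and Hba-a1 were named as the called markers, and Ftl1, Bach2, Gstm2, Nqo2, Sftpc, Ager and the other markers after their values were seen. The members and the lists were chosen with earlier results of these data known. The methods were tested on simulated data. Alternatives changed the background correction, the ratio, the scaling, the probe rule, the blocks and the arrays included.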

Additional observations from a re-analysis of the deposited data

Results flagged for a closer look

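In 140 groups of arrays (10 genes, 14 groups), 7 held a value far from the other arrays of its group, with a gap above Dixon's critical value, and chance alone gives about 1 in 20. Replicate 3 of NRCWE-030 at 18 µg on day 1 read lowest in its group for Nqo1 (-2.52) and for Nfe2l2 (-0.214). The same array had the lowest correlation with its group (0.885) and read -0.53 for Hmox1. Without it the differences at 18 µg were 0.12 for Nqo1, -0.03 for Nfe2l2 and 0.02 for Hmox1. Replicate 5 of NRCWE-030 at 18 µg on day 28 read highest in its group for Hmox1 (-1.33) and lowest for Nfe2l2 (-0.159), and its correlation with its group was 0.932. Without it the differences were -0.04 and -0.07. Nfe2l2 has 2 probes, and A_52_P396436 read no lower than 0.14 on any array. The negative values of Nfe2l2 on these arrays therefore come from its other probe, A_51_P411271. Control replicate 1 of day 1 read highest for Txnrd1 (0.139), and its correlation with its group was 0.941. Replicate 1 of NRCWE-030 at 162 µg on day 1 read highest for Gclc (3.44). Replicate 4 of NRCWE-030 at 18 µg on day 28 read highest for Slc7a11 (-0.241), a gene below background there. No cause was tested for these arrays.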

How the results depend on the processing

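No paired analysis was possible because the labels give no replicate numbers that pair mice, and the numbers used here only name arrays. The alternatives were normexp on backgrounds as deposited, no background correction, the scanner's log ratio, the series matrix, Aquantile scaling (which leaves ratios unchanged by construction), dim probes left out, the brightest probe of a gene, slide as a fixed or random block, scan day as a fixed block, and 1 fit of all 14 groups. The alternatives for pathway genes were chosen after seeing the data. The 1 member called at 162 µg of NRCWE-030 on day 1 became 0 with the series matrix and with a fixed block for slide or for scan day, which left fewer residual degrees of freedom. At 162 µg of NRCWE-025 on day 1 the count of 0 became 1 (Hmox1) with slide as a random block. The F-test count on day 1 became 1 (Hmox1) for NRCWE-025 with slide as a random block, and for NRCWE-030 1 (Hmox1) with the scanner's log ratio and 2 (Hmox1 and Gsta1) with slide as a random block. The difference between days for NRCWE-030 gave 1 (Hmox1) with the scanner's log ratio. Leaving out single arrays gave 0 to 1 members at 162 µg on day 1 and by the F-test on day 1, for either NM, and 0 in the other comparisons. Of the pathway genes called on day 1 at 162 µg, the 1 of NRCWE-025 became 0 with either fixed block, 2 (Aox1 and Gsta3) with slide as a random block, stayed 1 but was Gsta3 and not Aox1 with 1 fit of all 14 groups, and was 1 to 3 without single arrays. The 3 of NRCWE-030 became 0 with the fixed blocks, 5 (Aox1, Fth1, Gpx4, Gsta3 and Gstm1) with the scanner's log ratio and with 1 fit of all 14 groups, and 2 to 5 without single arrays. In that comparison the scanner's log ratio called 529 of 18656 genes, against 316 in the main fit, and the series matrix 293 of 18749. The shares of all genes called with the blocks, in the fit of all groups and in the alternative F-tests are not given. Signs that turned by over 1 SD were uncalled: at 162 µg Gclm read -0.17 (NRCWE-025, day 28, scanner's log ratio), and with slide as a fixed block Gpx2 and Txnrd1 read 0.18 and 0.28 (NRCWE-030, day 1). Slc7a11, whose controls were at or near background so that its values are no folds, turned to 0.54 with the scanner's log ratio and 0.44 with dim probes left out or the brightest probe (NRCWE-025, day 1), to 0.50 and 0.32 (NRCWE-030, day 1) and to 0.13 and 0.11 (NRCWE-030, day 28). The causes were not tested.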

Other observations

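Over the 69 arrays, and as a description with no test, the log2 ratio of Gpx2 correlated with the mean of the airway epithelium markers (r = 0.53), of heart muscle genes (0.54) and of fat genes (0.49). Srxn1 correlated negatively with the alveolar markers (-0.60), as did Hmox1 (-0.47), and Nfe2l2 correlated positively with them (0.55). Within groups these values were 0.61, 0.62 and 0.59 for Gpx2, -0.61 for Srxn1, -0.50 for Hmox1 and 0.56 for Nfe2l2. The pairs named are a selection from all genes and marker lists. Srxn1 with the airway markers (-0.47) and Gsta1 with the heart muscle genes (0.47) were of like size. Hmox1 correlated at 0.11 with the neutrophil markers and 0.17 with the macrophage markers, and at 0.02 and 0.03 within groups. No correlation with markers was recomputed without outlying arrays.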
